A study of Mus musculus with 6 samples.

Results

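The BCL2 family sets whether a cell lives or dies through its mitochondria, and 10 of its genes were examined here in mouse bone marrow cultures without the circadian repressors Cry1 and Cry2. The genes were taken by name, and a probe set counted as a member when the probe annotation listed it with 1 gene symbol and that symbol was Bcl2, Bcl2l1, Mcl1, Bax, Bak1, Bbc3, Pmaip1, Bcl2l11, Bid or Bad. This gave 29 of 45037 non-control probe sets, for 9 of the 10 genes. Bax had no probe set under this rule and is not analysed here.

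The series compared Cry 1/2 double knockout cells, labelled DKO 1 to DKO 3, with wild-type cells, labelled WT 1 to WT 3. All cells came from C57BL/6 mice per the labels and had been cultured with 10 ng/ml interleukin-7 and 20% fetal bovine serum. RNA of each culture was read on an oligonucleotide array as 1 signal per probe set, and the 3 arrays per genotype limit the precision of every comparison. The labels tie no array to a single animal, culture or pool, and give no time of day and no purified cell type, so every p-value here reflects array-to-array spread alone, some of which may be technical. In a mixed culture, fewer cells of a type and less RNA per cell cannot be told apart.

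BCL2 proteins fall into classes that act on each other. The survival proteins BCL2, BCL-XL (from Bcl2l1) and MCL1 hold back BAX and BAK, the effectors that open the outer mitochondrial membrane, and the BH3-only proteins release this hold. In mouse B cell progenitors, interleukin-7 acts through STAT5 to keep survival proteins up and the BH3-only protein BIM (from Bcl2l11) down, and loss of the cytokine kills these cells. The same tissue holds myeloid cells, which depend strongly on MCL1.

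WT 2 stood apart from the other 5 arrays and is described separately throughout. The control probe sets for the 3' end of Actb outshone those for its 5' end 824.5 times on WT 2 and 1.47 to 2.05 times elsewhere, and for Gapdh the figures were 132 and 0.838 to 1.72. After WT 2, DKO 1 had the highest ratio for both genes, and the next Gapdh ratio was 0.904 on WT 1. Centred log2 profiles over all probe sets gave r of 0.832 to 0.848 between WT 2 and each other array, and of 0.956 to 0.982 between any other pair. Cry1 itself read 359, 399 and 545 on DKO 1 to 3, against 1533, 1502 and 955 on WT 1 to 3, and Cry2 read 162, 178 and 133 on DKO 1 to 3, against 145, 102 and 105 on WT 1 to 3. Whether these probe sets lie in the deleted parts was not analysed here, so they check no label. Cell makeup also differed among the arrays of a genotype. The summed signal of 12 granulocyte markers was 608, 595 and 27690.3 on DKO 1 to 3, against 75791, 178800 and 19188 on WT 1 to 3. Markers of pro-B and pre-B cells, 10 genes such as Dntt, of which 0 lay below the median signal on all arrays, summed to 105625, 109558 and 66582 on DKO 1 to 3, against 71371, 136347 and 72627 on WT 1 to 3. The part of RNA quality and of cell makeup in the results that follow was not tested beyond the values given beside them.

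No member passed the test between the genotypes. Values were compared on a scale of log2(intensity + 16) after centring each array on its median, which understates the change of dim genes, and 26 of the 29 probe sets lay above the filter on low signal. Signals of single arrays are quoted as deposited, and words such as highest or lowest refer to them, while differences refer to centred values. With Benjamini-Hochberg adjustment across the 27022 probe sets that entered the fit, limma called 0 of the 26 and 0.0074% of all probe sets. At an unadjusted p under 0.05 it counted 0 of the 26, against 3.12% of all probe sets. Their differences, DKO minus WT, ran from -0.75 to 1.87, and their median of 0.29 lay beside a median of 0.21 over all tested probe sets. The balance of signs followed the scaling: 18 member probe sets were on the higher and 8 on the lower side after median centring, 14 and 11 with quantile normalization, 13 and 13 when only tested probe sets set the centre, and 11 and 15 with no centring, where the median over all genes moved to 0.011, 0.011 and -0.0080, against 0.30 as centred. Differences of representatives with all 6 arrays are therefore read beside that 0.30, and those of other probe sets beside the 0.21 over all tested probe sets. Every DKO array lay above every WT array for 1 member probe set, a Bad probe set, where 6.97% of all tested probe sets did so, and every DKO array lay below every WT array for 1, a Bcl2l11 probe set, where 3.29% did.

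The direction of many members depended on WT 2. Without that array 25 member probe sets were tested, limma called 0 of them and 0.0222% of all probe sets, and 2 of the 25 had an unadjusted p under 0.05, against 4.39% of all probe sets. The median difference was 0.12, beside -0.020 over all tested probe sets, and 11 of the 25 differences had the opposite sign to that with all 6 arrays. With WT 2 left out, DKO lay above WT on every array for 1 member probe set, where the share over all tested probe sets was 10.3%, and below WT on every array for 4, where it was 8.18%. All 4 were probe sets of Bcl2l11, which read transcripts of 1 gene and are not independent of each other.

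**Figure D1:**
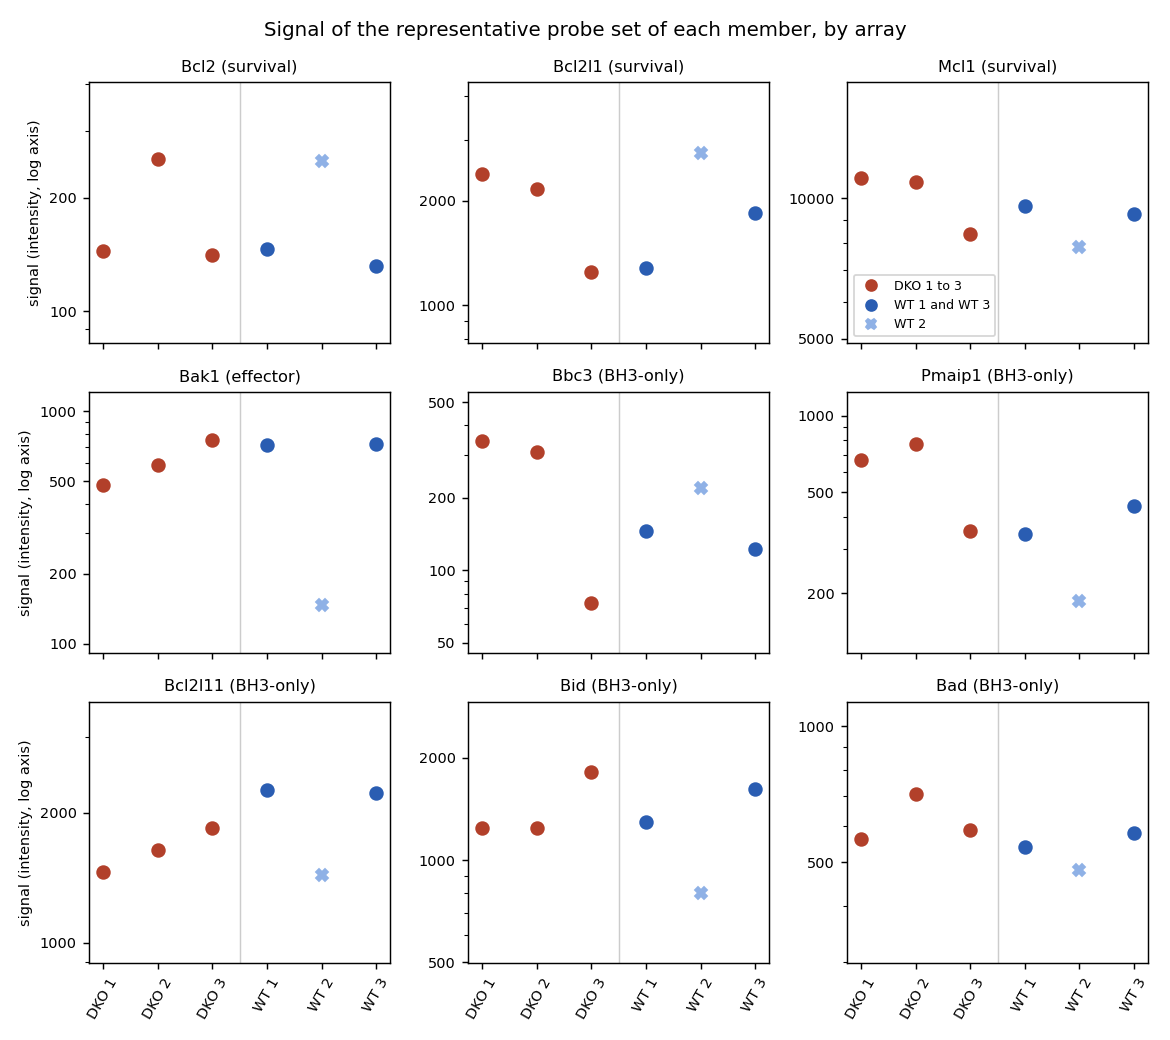
Signal of the representative probe set of 9 members (the one with the highest mean signal) on each array, on a log axis, with DKO arrays in red, WT 1 and WT 3 in dark blue and WT 2 as a light blue cross. Bcl2l11 is lower on DKO 1 to 3 than on WT 1 and WT 3, and Bbc3 and Pmaip1 are highest on DKO 1 and DKO 2.

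None of the survival genes Mcl1, Bcl2 and Bcl2l1 separated the genotypes. Mcl1 encodes a short-lived survival protein that early lymphocytes and myeloid cells need. At its representative probe set the signal was 11071, 10852 and 8383 in DKO 1 to 3, against 9599.6, 7842 and 9259 in WT 1 to 3. DKO 1 and DKO 2 were the highest and DKO 3 lay below WT 1 and WT 3, so the groups overlapped. Mean log2 signal was 13.45 ± 0.09 in DKO and 12.96 ± 0.73 in WT (SD, n = 3 each), a difference of 0.49 (SE 0.40, limma adjusted p = 0.822). Without WT 2 the difference was 0.070, with a 95% interval of -0.27 to 0.42 and a limma adjusted p of 0.963.

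The other 5 Mcl1 probe sets went different ways on WT 2. Probe set 1416880_at read 5026, 4981 and 3706 in DKO 1 to 3, against 3159.7, 296 and 4033 in WT 1 to 3, and differed by 1.83 over all arrays and 0.32 without WT 2. Probe set 1437527_x_at read 8573, 7546 and 5307 in DKO 1 to 3, against 5729, 22488 and 6318 in WT 1 to 3. WT 2 was thus the lowest array at the first of these probe sets and the highest at the second. Probe sets 1456243_x_at and 1456381_x_at followed the second, with WT 2 at 4.12 and 3.75 times the mean of WT 1 and WT 3. Their differences were -0.10, -0.053 and -0.16 with all arrays, in the order named, and 0.20, 0.30 and 0.14 without WT 2. Probe set 1416881_at read 1188, 2039.6 and 1934 in DKO 1 to 3, against 1795, 1227 and 2147 in WT 1 to 3, with differences of 0.31 and, without WT 2, -0.25. Without WT 2, 5 of the 6 Mcl1 probe sets lay on the higher side in DKO, by at most 0.32, and 0 were called.

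Bcl2, the founding survival gene of the family, was read by 5 probe sets. At the representative one the signal was 144, 253 and 141 in DKO 1 to 3, against 147, 250.4 and 132 in WT 1 to 3. DKO 2 and WT 2 were high and the other 4 arrays lay close together, but after centring WT 2 was the lowest array, at 7.24. The centred log2 means were 7.72 ± 0.40 in DKO and 7.38 ± 0.12 in WT (SD, n = 3 each), and the difference was 0.34 (SE 0.33, limma adjusted p = 0.822), or 0.27 without WT 2, with a 95% interval of -0.47 to 1.00. Probe set 1422938_at had the opposite sign, at 77.8, 139.8 and 27.6 in DKO 1 to 3, against 114, 291 and 52.3 in WT 1 to 3, a difference of -0.39 (SE 0.49, limma adjusted p = 0.825). DKO 3 was the lowest array there and the groups overlapped. The remaining 3 probe sets differed by 0.10 to 0.37 with all arrays, and 1 of them, 1440770_at, lay below the median signal on all 6 arrays.

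Bcl2l1 encodes BCL-XL, which in mouse keeps late erythroid cells and immature thymocytes alive. At its representative probe set the signal was 2391, 2157 and 1247 in DKO 1 to 3, against 1277, 2741 and 1838 in WT 1 to 3. DKO 3 was the lowest of all arrays and WT 2 the highest. On the log2 scale the means were 11.03 ± 0.36 in DKO and 10.72 ± 0.36 in WT (SD, n = 3 each), a difference of 0.31 (SE 0.42, limma adjusted p = 0.833), and it was 0.26 without WT 2 and -0.053 with quantile normalization. Probe set 1420887_a_at read 20.0, 107 and 92.9 in DKO 1 to 3, against 95.2, 20.3 and 119 in WT 1 to 3. It was low on DKO 1 and WT 2 only, with a difference of 0.25 with all arrays and -0.66 without WT 2. These arrays had the highest 3' to 5' ratios of the controls, and the part of RNA quality here was not tested. The other 2 probe sets lay below the filter, and below the median signal on all 6 arrays.

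Of the effectors, Bak1 had probe sets under the rule used here and Bax did not. Bak1 encodes BAK, which with BAX forms the pores of the outer mitochondrial membrane. At its representative probe set the signal was 481, 589.6 and 756 in DKO 1 to 3, against 716, 147 and 724 in WT 1 to 3. WT 2 was far below the other arrays, and DKO 1 and DKO 2 lay below WT 1 and WT 3 while DKO 3 lay above them. Group means on the log2 scale were 9.42 ± 0.45 in DKO and 8.64 ± 1.83 in WT (SD, n = 3 each), a difference of 0.78 (SE 0.88, limma adjusted p = 0.822). Without WT 2 the difference turned to -0.28 (SE 0.31, limma adjusted p = 0.949). The second Bak1 probe set lay below the median signal on all 6 arrays and was not tested.

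At 4 of the 5 probe sets of the BH3-only gene Bcl2l11, every DKO array lay below WT 1 and WT 3, and limma called 0 of the 5. Without WT 2, 8.18% of all tested probe sets had DKO below WT on every array. The 5 probe sets read 1 gene and are not independent of each other. Bcl2l11 encodes BIM, the main BH3-only killer of lymphocytes deprived of cytokine. The representative probe set, 1435448_at, read 1459.7, 1637 and 1843 in DKO 1 to 3, against 2259, 1439 and 2229 in WT 1 to 3. All 3 DKO arrays lay below WT 1 and WT 3, and WT 2 lay just below all of them in signal as deposited. After centring WT 2 was further below, at 9.69 against 10.59 on DKO 1, the lowest DKO array. With all 6 arrays the log2 signal was 10.85 ± 0.30 in DKO and 10.77 ± 0.94 in WT (SD, n = 3 each), a difference of 0.075 (SE 0.56, limma adjusted p = 0.969). Without WT 2 the difference was -0.47 (SE 0.24, limma adjusted p = 0.949), an unadjusted p of 0.0943 and a 95% interval of -1.04 to 0.10, which places DKO at 72.4% of WT on that scale.

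Of the other 4 Bcl2l11 probe sets, 1456005_a_at kept DKO below every WT array, WT 2 included, as 3.29% of all tested probe sets did. It read 490.2, 629.6 and 837 in DKO 1 to 3, against 1134, 1898 and 1139 in WT 1 to 3. After centring WT 2 was the lowest WT array, at 10.09, just above DKO 3 at 10.05. Mean log2 signal was 9.51 ± 0.51 in DKO and 10.26 ± 0.18 in WT (SD, n = 3 each), a difference of -0.75 (SE 0.43, limma adjusted p = 0.822). Without WT 2 it was -0.84 (SE 0.33, limma adjusted p = 0.949), with an unadjusted p of 0.0392, and DKO stood at 56% of WT. DKO 3 was the highest of the DKO arrays, and without it the difference was -1.02. Probe set 1456006_at read 123, 139 and 114 in DKO 1 to 3, against 246, 215 and 168 in WT 1 to 3. There too the 3 DKO arrays lay below the 3 WT arrays in signal as deposited, and after centring WT 2 fell below them. Its difference was -0.35 with all arrays and -0.66 without WT 2, with an unadjusted p of 0.0386 and a limma adjusted p of 0.949.

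Probe set 1435449_at read 219.6, 349 and 362 in DKO 1 to 3, against 567, 238 and 437 in WT 1 to 3. DKO lay below WT 1 and WT 3, and its difference was -0.036 with all arrays and -0.71 without WT 2. Probe set 1426334_a_at read 142, 141 and 171 in DKO 1 to 3, against 211, 125 and 145 in WT 1 to 3. Here DKO 3 lay above WT 3, and the difference was 0.26 with all arrays and -0.21 without WT 2. All 5 probe sets were thus on the lower side in DKO when WT 2 was left out, by 0.21 to 0.84, and 3 of 5 with all 6 arrays, and limma called 0 in either fit.

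**Figure D2:**
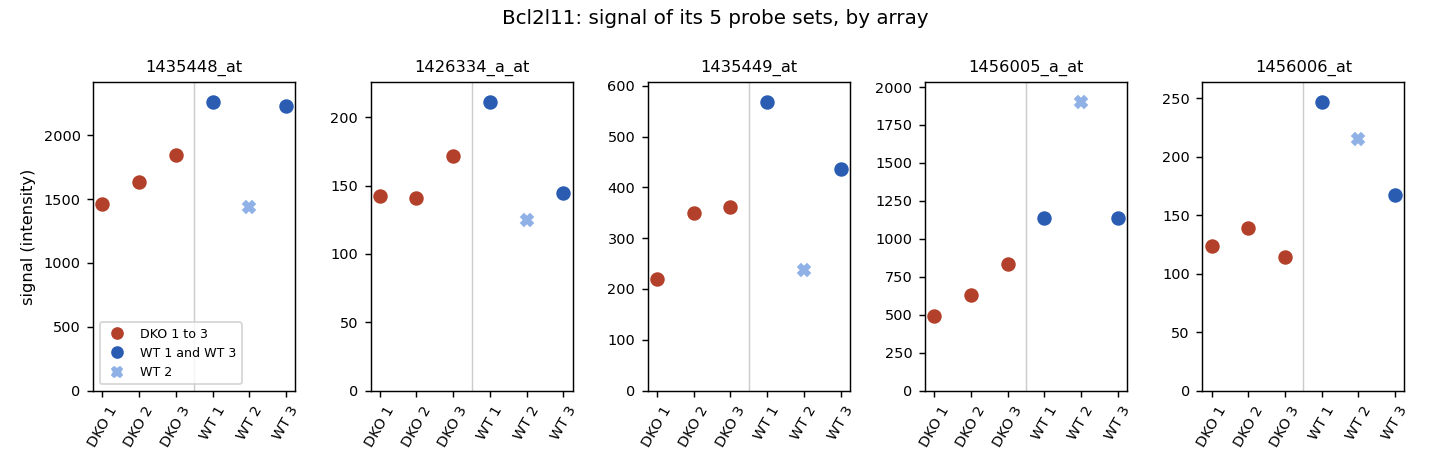
Signal of the 5 Bcl2l11 probe sets on each array, on linear axes from 0, with DKO arrays in red, WT 1 and WT 3 in dark blue and WT 2 as a light blue cross. At 4 of them every DKO array lies below WT 1 and WT 3, as for 8.18% of all tested probe sets without WT 2. WT 2 is lowest at 1435448_at and highest at 1456005_a_at.

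Pmaip1 and Bbc3, the BH3-only genes NOXA and PUMA that p53 activates, were high on the DKO 1 and DKO 2 arrays alone among the DKO arrays. NOXA binds MCL1, and PUMA binds all survival proteins. Pmaip1 read 668, 771 and 352 in DKO 1 to 3, against 342, 187 and 439 in WT 1 to 3. DKO 1 and DKO 2 were the highest arrays, DKO 3 lay between WT 1 and WT 3, and WT 2 was lowest. The centred log2 means were 9.34 ± 0.45 in DKO and 8.17 ± 1.17 in WT (SD, n = 3 each), a difference of 1.17 (SE 0.64, limma adjusted p = 0.822), the widest among the representatives. Without WT 2 it was 0.51 (SE 0.34, limma adjusted p = 0.949).

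Bbc3 read 343, 309 and 72.8 in DKO 1 to 3, against 145, 221 and 122 in WT 1 to 3. DKO 1 and DKO 2 were above every WT array and DKO 3 was below every WT array. On the log2 scale the means were 7.93 ± 0.99 in DKO and 7.29 ± 0.19 in WT (SD, n = 3 each), a difference of 0.64 (SE 0.51, limma adjusted p = 0.822). It was 0.53 without WT 2 and 1.21 without DKO 3. The spread among the DKO arrays was thus wider than that among the WT arrays, and no difference between the genotypes was detectable over it. DKO 1 and DKO 2 were also the arrays with the lowest granulocyte sums given above, and the part of cell makeup in these values was not tested.

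Promoter windows of Bcl2l11 and Bbc3 are shown because Bcl2l11 was the member whose probe sets most often kept DKO below WT 1 and WT 3, and Bbc3 the one with the widest spread among DKO representatives. Cryptochromes repress the CLOCK and BMAL1 proteins at E-boxes, and FOXO factors are known to activate both genes when growth factor signals fall. Each window runs 5′ to 3′ on the gene's strand, from 250 bases before to 50 bases after an annotated start in RefSeq (GRCm38.p6), with motif matches in capitals. The Bcl2l11 window shown, at chr2:128125788-128126087, plus strand, held the FOXO motif GTAAACA at position -227 from the start. The gene's other window, at chr2:128127325-128127624, held no match. The Bbc3 window shown, at chr7:16310181-16310480, plus strand, held the E-box CACGTG at position -64, and the Bbc3 window at chr7:16309333-16309632 held no match.
Bcl2l11: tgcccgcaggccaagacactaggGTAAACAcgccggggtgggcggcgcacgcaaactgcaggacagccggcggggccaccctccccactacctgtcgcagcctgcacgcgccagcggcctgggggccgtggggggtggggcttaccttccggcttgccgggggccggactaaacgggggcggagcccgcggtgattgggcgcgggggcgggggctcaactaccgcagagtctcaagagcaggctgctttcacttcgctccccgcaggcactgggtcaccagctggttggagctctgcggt
Bbc3: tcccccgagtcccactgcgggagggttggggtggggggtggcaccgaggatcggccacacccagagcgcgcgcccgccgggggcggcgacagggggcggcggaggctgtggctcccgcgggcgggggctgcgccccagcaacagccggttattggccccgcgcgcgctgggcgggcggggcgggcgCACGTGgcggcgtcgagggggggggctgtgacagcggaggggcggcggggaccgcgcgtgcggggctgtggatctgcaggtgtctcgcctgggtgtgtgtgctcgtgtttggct
Motifs were searched on both strands in 15 windows of 9 members, Pmaip1 not among them. CACGTG was in 2 of the 15, of Bax and Bbc3, and in 7.15% of all 32851 windows of this length. GTAAACA was in 2, of Bcl2l11 and of a Bbc3 window that overlaps the one shown, and in 3.65% of all windows. The clock motifs CACGTT and TTATGTAA were in 0 of the 15, against 4.68% and 0.938% of all windows, and AGGTCA was in 1, of Bcl2l1, against 16.3%. The motifs do not overlap one another in these windows, and a match describes letters, not binding.

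Of Bid and Bad, the remaining BH3-only genes, limma called 0 probe sets in either fit, and the DKO arrays stood apart from the WT arrays at 1 Bad probe set. BID is cut by caspase 8 and links death receptors to mitochondria. At its representative probe set the signal was 1244, 1239 and 1821 in DKO 1 to 3, against 1290.4, 799 and 1623 in WT 1 to 3. DKO 3 was the highest array and WT 2 the lowest, with a log2 signal of 10.63 ± 0.45 in DKO and 10.08 ± 1.09 in WT (SD, n = 3 each) and a difference of 0.56 (SE 0.63, limma adjusted p = 0.822). Without WT 2 it was -0.054, with a 95% interval of -0.82 to 0.71. Probe set 1448560_at read 34.1, 141 and 243 in DKO 1 to 3, against 184, 7.49 and 139 in WT 1 to 3. It was low on DKO 1 and WT 2, the arrays with the highest control ratios. Its difference was 0.81 with all arrays and -0.49 without WT 2. Probe set 1447873_x_at read 90.9, 123 and 134 in DKO 1 to 3, against 99.9, 385 and 99.3 in WT 1 to 3, highest on WT 2, and its difference was -0.11 with all arrays and 0.16 without WT 2.

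BAD is held inactive by phosphorylation when growth factors signal. At its representative probe set the signal was 562, 707 and 590.3 in DKO 1 to 3, against 539, 479 and 580.1 in WT 1 to 3. DKO 2 was the highest array, and the other values lay between 479 and 590.3. Group means on the log2 scale were 9.46 ± 0.19 in DKO and 8.94 ± 0.71 in WT (SD, n = 3 each), a difference of 0.52 (SE 0.47, limma adjusted p = 0.822), and without WT 2 it was 0.12, with a 95% interval of -0.47 to 0.71. The second probe set read 973, 854 and 727 in DKO 1 to 3, against 635, 39.3 and 682 in WT 1 to 3. Every DKO array was above every WT array, as for 6.97% of all tested probe sets. The difference of 1.87 (SE 1.20, limma adjusted p = 0.822) rested mostly on WT 2, without which it was 0.34, with a limma adjusted p of 0.949.

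**Figure D3:**
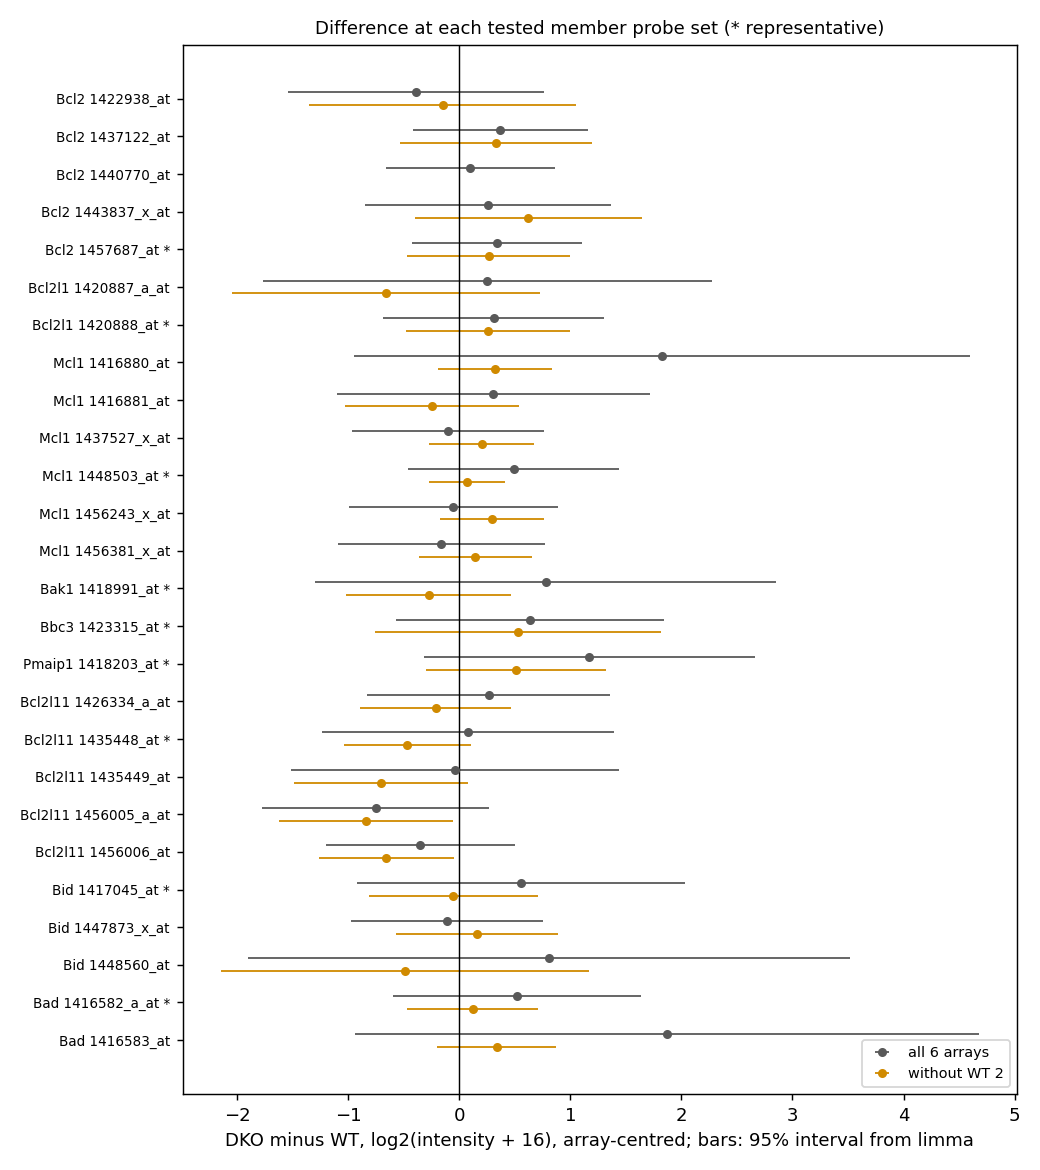
Difference DKO minus WT on the log2(intensity + 16) scale at each of the 26 tested member probe sets, with all 6 arrays in grey and without WT 2 in orange, and 95% limma intervals as bars. With all 6 arrays the intervals all include 0, and without WT 2 those of the Bcl2l11 probe sets 1456005_a_at and 1456006_at do not, before adjustment.

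Probe sets of the same gene disagreed with each other on WT 2. The signal of WT 2, divided by the mean of WT 1 and WT 3, ranged from 0.0824 to 4.12 among the 6 probe sets of Mcl1. It ranged from 0.0464 to 3.87 among the 3 of Bid, from 0.0597 to 0.856 among the 2 of Bad and from 0.19 to 6.8 among the 4 of Bcl2l1. Only Bcl2 had all of its probe sets on the higher side, from 1.8 to 5.56, among the genes with over 1 probe set. The medians of these arrays stood at a ratio of 2.30, so the Bcl2 ratios of 1.80 and 2.18 are below the array's own shift. These ratios stand beside the 3' to 5' ratios of the controls on the same array, and where each probe set lies along its transcript was not analysed here.

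**Figure D4:**
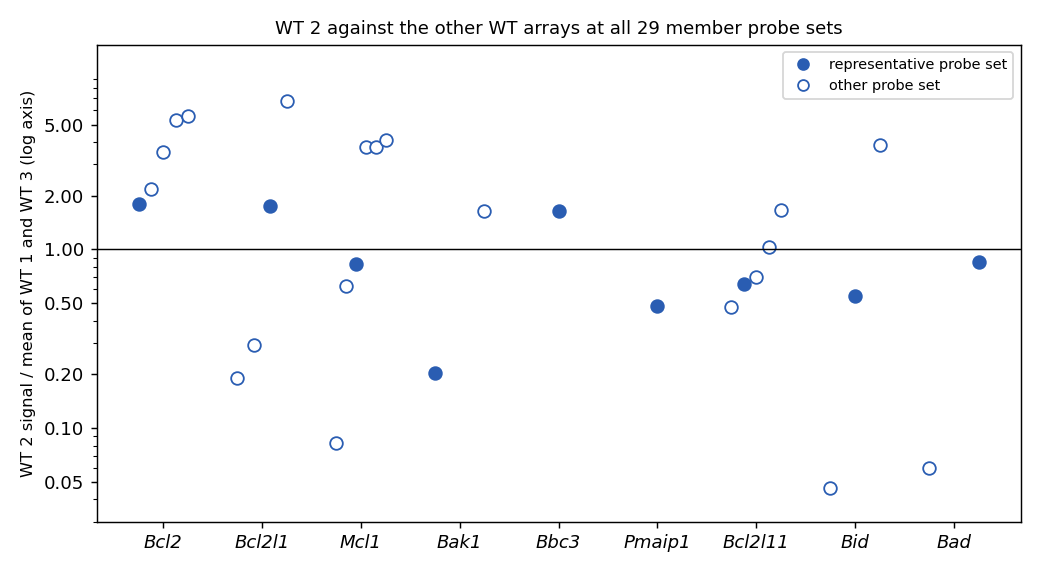
Signal of WT 2 divided by the mean of WT 1 and WT 3, on a log axis, for all 29 member probe sets, grouped by gene, with representatives filled. Values for Mcl1 span 0.0824 to 4.12, and all 5 probe sets of Bcl2 lie above 1.

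Other genes of the death pathway did not pass the test either. Among 80 genes in 7 lists, 64 were tested by their representative probe set, of which limma called 0, with 51 on the higher and 13 on the lower side in DKO and 3 with an unadjusted p under 0.05. Without WT 2, 36 were on the higher and 29 on the lower side of 65, limma called 0, and 5 had an unadjusted p under 0.05. The median over all 12627 tested genes was 0.30 with all arrays and 0.013 without WT 2, and the 51 and 13 became 36 and 28 with quantile normalization.

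The other relatives of BCL2 had 7 of 10 on the higher side, with a median of 0.29. Bmf, a BH3-only gene, read 2785, 2467 and 427 in DKO 1 to 3, against 750.2, 1111 and 589.6 in WT 1 to 3. Like Bbc3 it was high on DKO 1 and DKO 2 and lower on DKO 3 than on the WT arrays, with a difference of 1.17 (SE 0.69, limma adjusted p = 0.822), or 1.08 without WT 2. Bcl2l13 differed by 0.82 and by -0.018 without WT 2. The Bcl2a1 genes share probe sets and are not analysed here.

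Genes of the apoptosome and the caspases, which cut the cell apart once cytochrome c leaves the mitochondria, had 9 of 12 on the higher side, with a median of 0.33 with all arrays and 0.020 without WT 2. Endog, which encodes a mitochondrial nuclease, differed by -1.05 and Cycs, which encodes cytochrome c, by -0.44, or by -0.47 and -0.14 without WT 2. The inhibitors of apoptosis had 5 of 6 on the higher side, with a median of 0.49 (0.066 without WT 2). Birc2 read 3413, 3321 and 1704 in DKO 1 to 3, against 1456, 1213 and 1899.7 in WT 1 to 3, a difference of 1.15 (SE 0.55, limma adjusted p = 0.822) and of 0.67 without WT 2, and Naip2 differed by 0.59, or 0.077 without WT 2.

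Upstream of the family, genes from the interleukin-7 receptor to STAT5 had 9 of 10 on the higher side, with a median of 0.42 (0.22 without WT 2, with 6 of 10 higher). Stat5a differed by 1.37 and Jak3 by 0.50, or by 0.34 and 0.29 without WT 2. Pim2, a survival kinase that STAT5 induces and which is named here after its values were seen, read 889.6, 768 and 813 in DKO 1 to 3, against 2336, 613 and 1066 in WT 1 to 3. All DKO arrays lay below WT 1 and WT 3, as for 8.18% of all tested probe sets without WT 2. The difference was -0.95 (SE 0.32, limma adjusted p = 0.949) without WT 2 and -0.17 with it.

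The FOXO, p53 and stress regulators of BH3-only genes had all 9 tested on the higher side, with a median of 0.50, and 6 of 9 with a median of 0.075 without WT 2. Chac1, a target of the ATF4 and CHOP stress response, read 856, 536 and 133 in DKO 1 to 3, against 125, 228 and 80.8 in WT 1 to 3. In signal as deposited it was high on DKO 1 and DKO 2, with DKO 3 within the range of the WT arrays. After centring every DKO array lay above every WT array, as for 6.97% of all tested probe sets. Chac1 differed by 1.79 (SE 0.59, limma adjusted p = 0.822), or 1.81 without WT 2. Ddit3, which encodes CHOP, differed by 0.68, or 0.55 without WT 2.

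Genes for partners and turnover of MCL1 and BCL2 had 9 of 12 on the higher side, with a median of 0.75, and 6 of 12 with a median of -0.032 without WT 2. Bag3, a co-chaperone that stabilises survival proteins, read 171, 219 and 143 in DKO 1 to 3, against 74.1, 12.9 and 61.4 in WT 1 to 3. Every DKO array was above every WT array, as for 6.97% of all tested probe sets. The difference was 2.02 (SE 0.68, limma adjusted p = 0.822) with all arrays and 1.18 (SE 0.26, limma adjusted p = 0.804) without WT 2. Gsk3b, whose kinase marks MCL1 for degradation, differed by 0.78, or 0.37 without WT 2. Mapk8, which encodes the kinase JNK1 and is named here after its values were seen, read 248, 365 and 297 in DKO 1 to 3, against 606, 252 and 716 in WT 1 to 3. Every DKO array lay below WT 1 and WT 3, as for 8.18% of all tested probe sets without WT 2. The difference was -1.11 without WT 2 and -0.34 with it.

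Death receptors and their adaptors had 3 of 5 on the higher side, with a median of 0.015, and 1 of 5 with a median of -0.31 without WT 2. Fas, the death receptor of activated lymphocytes, read 108, 256 and 87.1 in DKO 1 to 3, against 80.4, 36.4 and 34.8 in WT 1 to 3. Each DKO array was above each WT array, as for 6.97% of all tested probe sets, and Fas lay below the median signal on 2 arrays. The difference was 1.57 (SE 0.54, limma adjusted p = 0.822), or 1.10 without WT 2. Tnfrsf1a, a receptor of tumour necrosis factor, differed by -0.84, or -0.57 without WT 2.

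Marker lists of other cells that such cultures can hold are given with their counts by sign, DKO minus WT. All 11 tested granulocyte markers had a negative difference, with a median of -3.25, among them S100a9 (-4.97) and S100a8 (-4.84). Of 12 macrophage markers 10 did, with Csf1r at -2.04 and Tyrobp at -1.96 and sums of 26067, 18129.6 and 30971 on DKO 1 to 3, against 55144, 111145 and 21312 on WT 1 to 3. Immature and mature B cell markers summed to 3384, 4622 and 23322 on DKO 1 to 3, against 11631, 29446 and 21356 on WT 1 to 3, with 2 of 5 tested on the higher side (0 of 5 without WT 2), Cd22 at -1.62 and H2-Aa at -1.03. T, NK and innate lymphoid markers summed to 989, 1638 and 308 on DKO 1 to 3, against 358, 944 and 345 on WT 1 to 3, with 7 of 8 on the higher side (5 of 7 without WT 2), Klrd1 at 1.65 and Cd3d at 2.34.

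Of the pro-B and pre-B cell markers 6 were on the higher and 4 on the lower side in both fits. Dntt (2.17) and Blnk (1.18) had the smallest p, at 2.53 and 0.66 without WT 2. Dntt read 10162, 10083 and 1079 in DKO 1 to 3, against 1314, 3466 and 495 in WT 1 to 3. Blnk read 19885, 21100 and 11875 in DKO 1 to 3, against 9238, 7084 and 12405 in WT 1 to 3. For both, DKO 1 and DKO 2 were the highest arrays and DKO 3 lay within the range of the WT arrays. Rag1 (-0.061) and Rag2 (-0.26), the recombinase genes of early lymphocytes, had negative differences, and read -1.05 and -1.08 without WT 2, and Ebf1 read -0.49 and -0.35, all 3 named after their values were seen. Of the plasma cell markers 6 were on the higher and 1 on the lower side, or 4 and 3 without WT 2. Igha was the only gene of the marker lists that limma called, at 7.56 (SE 0.53, limma adjusted p = 0.0435). In the same list Jchain read 6321, 2655 and 1907 in DKO 1 to 3, against 314, 550 and 82.3 in WT 1 to 3. Its difference was 3.91 (SE 0.63, limma adjusted p = 0.428), or 4.13 without WT 2. Mzb1 read 0.49, Xbp1 0.0039, Prdm1 0.067 and Sdc1 -1.24, and Irf4 read 0.73 and, without WT 2, -0.52. Apart from Igha, these plasma cell markers were also named after their values were seen.

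Of the dendritic cell markers 4 of 5 were on the higher side, with Itgax at 1.06 and Batf3 at 1.09, and 3 of 5 without WT 2. All 4 tested markers of mast cells and basophils were on the higher side, with Mcpt8 at 1.51 and Gata2 at 1.03, and so were 5 of 5 without WT 2. The markers of this list summed to 2154, 1971 and 276 on DKO 1 to 3, against 1201, 826 and 308 on WT 1 to 3. The sum was thus high on DKO 1 and DKO 2 and lowest on DKO 3. Erythroid and megakaryocyte markers split into 3 and 3 in both fits, with a median of -0.057, and Ppbp (-2.03) and Pf4 (-1.96) had the smallest p. Ppbp read 16.6, 30.9 and 278 in DKO 1 to 3, against 510, 384 and 264 in WT 1 to 3. Pf4 read 147, 198 and 3950 in DKO 1 to 3, against 1619, 4195 and 2269 in WT 1 to 3. Both were low on DKO 1 and DKO 2, with DKO 3 within the range of the WT arrays. Of the stromal and endothelial markers 3 were on the higher and 2 on the lower side, with Pecam1 at 0.96 (0.14 without WT 2) and Kdr at 0.22 (0.33 without WT 2).

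The genes most like the member with the highest mean signal in each class were taken by the Euclidean distance between log2 profiles over 6 arrays, each centred on its own mean, among 12626 tested genes. For Mcl1 they were Dlgap4 (distance 0.11), Slc36a1 (0.12) and Nrip1 (0.12). For Bak1 they were Ahsa1 (0.11), Midn (0.12) and Pgrmc1 (0.12), and for Bcl2l11 they were Pde7a (0.20), Cxcr4 (0.22) and Eaf1 (0.23). Without WT 2, Dlgap4 stayed at rank 1 for Mcl1, and the other 8 genes held ranks from 5 to 80 in the lists of their members.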

How the data were processed

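The authors deposited MAS5 intensity values, per the submitters' processing notes, where no version stands. Trimming 2% of the values at either end left a mean of 500 on each array, so signals shared a common target. No detection call, batch or build was used here. Titles gave the groups.

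The table has 45101 probe sets, 64 of them controls. Single symbols were listed for 34945, several for 932 and none for 9160, and members and named genes come from single symbols, updated through gene identifiers with RefSeq's GRCm38.p6 table.

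Intensities were taken as log2(intensity + 16). Since array medians spanned 1.13 (limit 0.5), medians were subtracted array by array. Limma 3.58.1 in R 4.3.3 tested probe sets whose mean exceeded percentile 40, two-sided, by genotype alone, with a variance trend and Benjamini-Hochberg adjustment over all of them at 0.05. A gene's representative is its probe set with the highest mean. The fit was run on simulated data whose spread was taken from the arrays other than WT 2, so that check does not cover the spread WT 2 adds. Python 3.11.15 with pandas 2.3.3 and matplotlib 3.10.9 made the rest.

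Members, the 7 pathway and 10 marker lists, settings and the naming rule were chosen with earlier results of these data known. Pim2, Mapk8 and the marker genes marked so above were added after their values were seen. The rule named every member, called genes of each list or else the 2 with the smallest p, and the 3 nearest profiles. Other settings were quantile normalization, no centring, centring over tested probe sets, a pseudocount of 1 or 64, the filter dropped or at percentile 60, variances without trend or robust, array weights, replicate number as a block, each array left out, other representatives, and WT 2 left out with quantile normalization. Whether shared replicate numbers pair the arrays is not given by the labels, and 3 arrays per genotype, WT 2 among them, cannot settle it. Correlations of deviations from the group means were -0.15, -0.0019 and 0.33 for numbers 1 to 3, and -0.39 to 0.32 between unlike numbers. DKO 3 and WT 3 also had the highest r of any pair of arrays, at 0.982.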

Additional observations from a re-analysis of the deposited data

How the results depend on the processing

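No setting except array weights called a member probe set. Array weights, whose estimation stopped before convergence with WT 1 at 30.8 and WT 2 at 0.053, called 14 of the members, 8129 probe sets in all and 71 list genes. Over all tested probe sets the 2 calls became 0 with quantile normalization, no centring, centring over the tested probe sets, pseudocount 1 and the replicate block, 1 with a filter at percentile 60 and with robust variances, and 5 without WT 2 with quantile normalization. Leaving out 1 array gave 0 to 6, with 6 without WT 2. The 1 called list gene, Igha, became 0 with quantile normalization, no centring, centring over the tested probe sets, pseudocount 1 and the replicate block, and leaving out 1 array gave 0 to 1, with 1 without WT 2. The cause of these changes was not tested.

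Of 252 values of 13 member probe sets under other settings, 26 changed sign. Bcl2l11 1435448_at read -0.39 with quantile normalization, -0.24 with no centring, -0.22 with centring over the tested probe sets, -0.025 with pseudocount 64, -0.46 with array weights, -0.44 without WT 2 with quantile normalization, -0.16 as the mean and -0.036 as the median over the gene's probe sets, and -0.47 to 0.39 with 1 array left out, negative without WT 2 or DKO 3. Bcl2l11 1426334_a_at read -0.048 with no centring, -0.029 with centring over the tested probe sets, -0.48 with array weights, -0.19 without WT 2 with quantile normalization and -0.21 to 0.58 with 1 array left out, negative without WT 2. Bcl2l11 1435449_at read 0.012 with pseudocount 1 and -0.71 to 0.35 with 1 array left out, positive without DKO 1, WT 1 or WT 3. Bcl2l1 read -0.053 with quantile normalization and -0.00041 with no centring. Bak1 read -0.29 with array weights, -0.27 without WT 2 with quantile normalization and -0.28 to 1.36 with 1 array left out, negative without WT 2. Bid read -0.031 without WT 2 with quantile normalization and -0.054 to 0.99 with 1 array left out, negative without WT 2. The replicate block leaves a difference as it is when numbers are balanced, so only its p could move, and it called 0 members. Outside array weights the smallest adjusted p was 0.562. The number of arrays limits all values.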
